A study of Mus musculus with 6 samples.

Results

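Acinar genes were examined in islet RNA of Pax8 +/- and Wt mice, as 34 genes chosen by name: 30 digestive enzymes and other secretory products of the exocrine pancreas and the 4 transcription factors Ptf1a, Rbpjl, Bhlha15 and Nr5a2. Gene symbols of the array platform matched 32 of the 34, each with 1 probe set, among 22206 gene probe sets in all. The platform annotation names 19505 genes. Ctrc and Pnlip were not matched, so that their levels are not analysed here. Islets came from 3 Pax8 +/- samples and 3 Wt samples, the second group labelled Control. In Pax8 +/- mice 1 copy of Pax8 is knocked out, with no tissue-restricted Cre named, and the other is kept. The gene encodes a factor required for thyroid development and hormone synthesis, and the heterozygotes model mild hypothyroidism. The study used males on a C57BL/6 background, and no thyroid hormone treatment is given for the islet samples. The mice of this part of the work were killed at an age of 9 months, as stated by the study and not by the labels. How many mice went into a sample is not in the labels, so that p-values measure only the spread between these samples, which may be technical in part.

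Acinar cells make up most of the pancreas. They store digestive enzymes, many as inactive precursors called zymogens, in granules that are released into the duct and reach the gut. Endocrine islets lie embedded in this tissue, and islets freed with collagenase and picked by hand can carry acinar cells and acinar RNA with them. The acinar enzyme genes are switched on by the PTF1 complex, in which PTF1A, a basic helix-loop-helix factor, acts together with RBPJL, and by NR5A2. MIST1, the product of Bhlha15, organises the secretory machinery. RNA of whole islet preparations was measured here, where fewer acinar cells and less acinar RNA per cell cannot be told apart.

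Levels are log2 values after RMA, a method that subtracts background, makes arrays comparable and summarises the probes of a set into 1 value. Array medians lay between 5.25 and 5.33. As background, the 95th percentile of 5222 negative control probe sets was taken, which was 7.60 to 7.97. The highest value of an array was 19.88 to 19.93, and 39 to 46 gene probe sets lay within 0.1 of it. A probe set within 0.1 of the highest value is called here at the upper end of the scale. Ins2, Iapp and Gcg, which define beta and alpha cells, stood there on all 6 arrays. With limma's linear model, no probe set reached an adjusted p under 0.05 (0% of 22206, smallest adjusted p = 0.745), and 5.91% had an unadjusted p under 0.05.

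Many acinar enzyme genes reached the upper end of the scale in these islet preparations. Of the 32 genes, 9 stood at the upper end on all 6 arrays, 6 on some arrays and 17 on none, where the 17 include 3 below background on all arrays. The 9 were the carboxypeptidase genes Cpa1 and Cpb1, the elastase gene Cela2a, the chymotrypsin-type genes Ctrb1 and Ctrl, the trypsinogen gene Prss2, the lipase-related gene Pnliprp1, Cel, which encodes carboxyl ester lipase, and Clps, which encodes colipase. Their values were 19.83 to 19.93 on the Pax8 +/- arrays and 19.88 to 19.93 on the Wt arrays. No difference can be read there in either direction. Between 12 and 15 of the 32 genes reached the upper end on a given array. It was 15, 12 and 12 genes on Pax8 +/- replicates 1, 2 and 3, against 15, 15 and 12 on Wt replicates 1, 2 and 3.

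**Figure D1:**
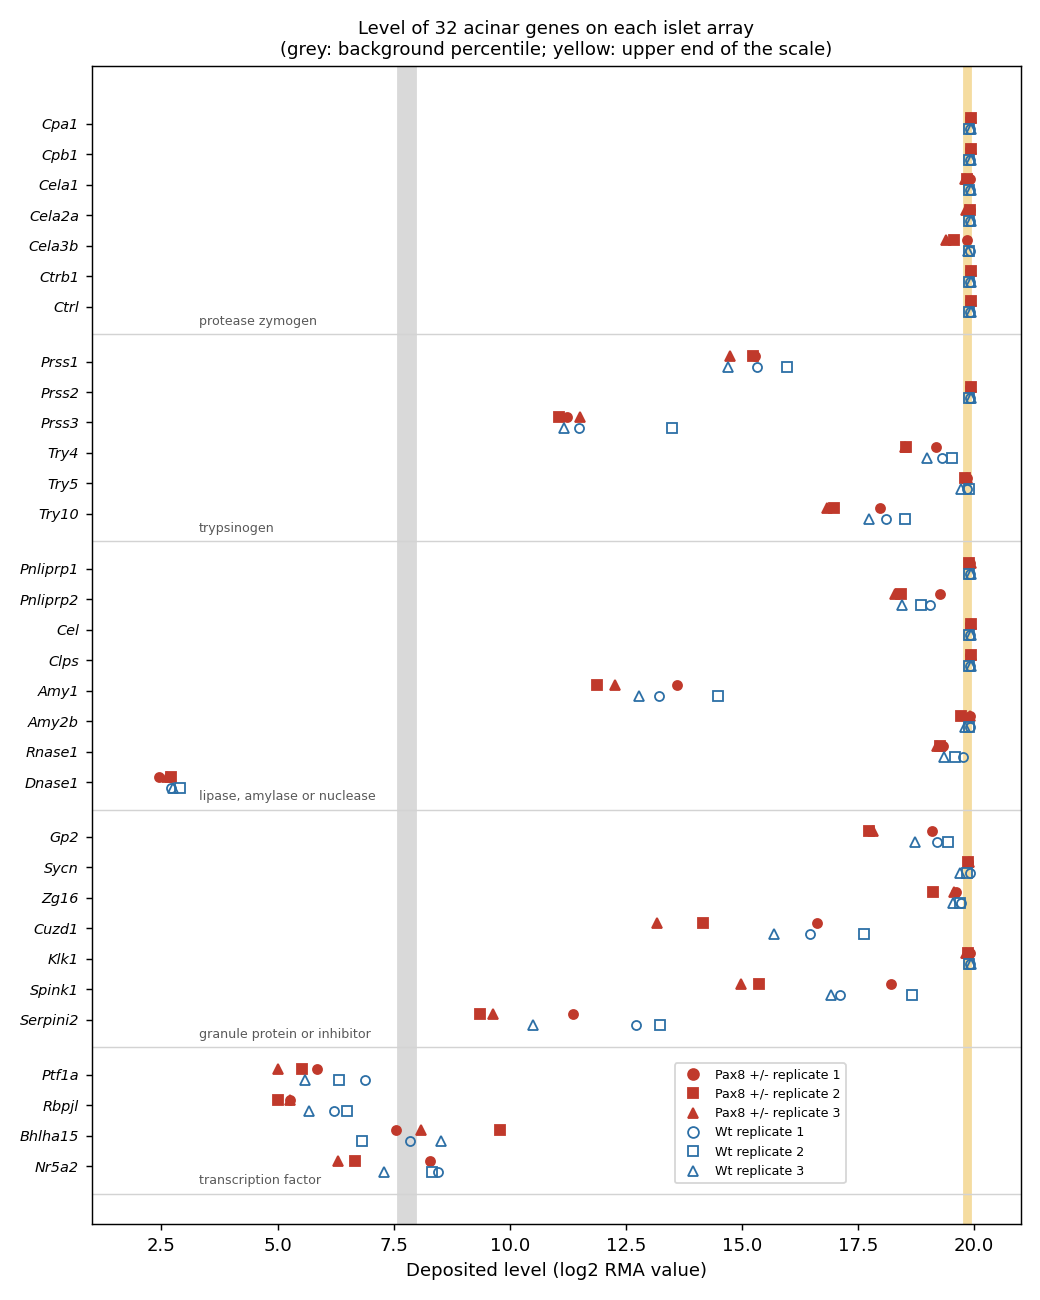
Deposited log2 level (horizontal axis) of 32 acinar genes (rows, grouped by role) on the Pax8 +/- arrays (filled red, upper line of a row) and the Wt arrays (open blue, lower line), with the background percentile of the arrays in grey and the upper end of the scale in yellow. Enzymes crowd the yellow band near the highest values of the arrays, while Ptf1a and Rbpjl lie left of the grey band on all 6 arrays.

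Another 6 genes met the upper end on 4 or 5 arrays. Cela3b, an elastase gene, was at 19.84, 19.57 and 19.39 on the Pax8 +/- arrays, against 19.91, 19.88 and 19.86 on the Wt arrays. Every Pax8 +/- value lay below every Wt value, and all 3 Wt values were at the upper end. Amy2b, a pancreatic amylase gene, was at 19.91, 19.71 and 19.92 on the Pax8 +/- arrays, against 19.91, 19.88 and 19.80 on the Wt arrays, and overlapped. Neither gene can be read beyond that limit.

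Cela1, another elastase gene, was at 19.91, 19.84 and 19.80 on the Pax8 +/- arrays, against 19.91, 19.88 and 19.93 on the Wt arrays. The trypsinogen gene Try5 was at 19.84, 19.81 and 19.85 on the Pax8 +/- arrays, against 19.84, 19.88 and 19.72 on the Wt arrays. Both overlapped between the groups. Sycn, whose product syncollin sits in the zymogen granule, was at 19.87, 19.88 and 19.88 on the Pax8 +/- arrays, against 19.91, 19.84 and 19.71 on the Wt arrays. Klk1, a tissue kallikrein gene, was at 19.91, 19.86 and 19.83 on the Pax8 +/- arrays, against 19.91, 19.88 and 19.93 on the Wt arrays. Sycn and Klk1 overlapped too, and for these 6 genes no fold change is given. Just outside the upper end lay Zg16 and Rnase1, with highest values of 19.71 and 19.76, described below with their roles.

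Most of the 17 genes below the upper end had a lower mean in Pax8 +/- islets. The mean of 16 was lower in Pax8 +/- than in Wt islets, where 50.8% of all probe sets had a lower mean. Their median log2 difference was -0.81, against -0.01 over all probe sets. Lower at a fold change of at least 2.5 and an unadjusted p of at most 0.05, the thresholds of the study, were 2 of the 17, Serpini2 and Cuzd1, where 0.351% of all probe sets were called. Higher at these thresholds were 0 of the 17 by limma, where 0.648% of all probe sets were called. An unadjusted p under 0.05 from limma was reached by 4 of the 17 (Serpini2, Cuzd1, Try10 and Rbpjl), where 5.91% of all probe sets reached it. Of these, Rbpjl lay below background on all arrays. An ordinary linear model without moderation called 0 of the 17 in either direction at the thresholds (0.0721% of all probe sets lower and 0.0856% higher). None had an adjusted p under 0.05, the smallest being adjusted p = 0.745 from limma. The groups did not overlap for 2 of the 17, Rnase1 and Rbpjl, both lower in Pax8 +/- islets, where 5.14% of all probe sets were separate in that direction, and 4.52% in the other.

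**Figure D2:**
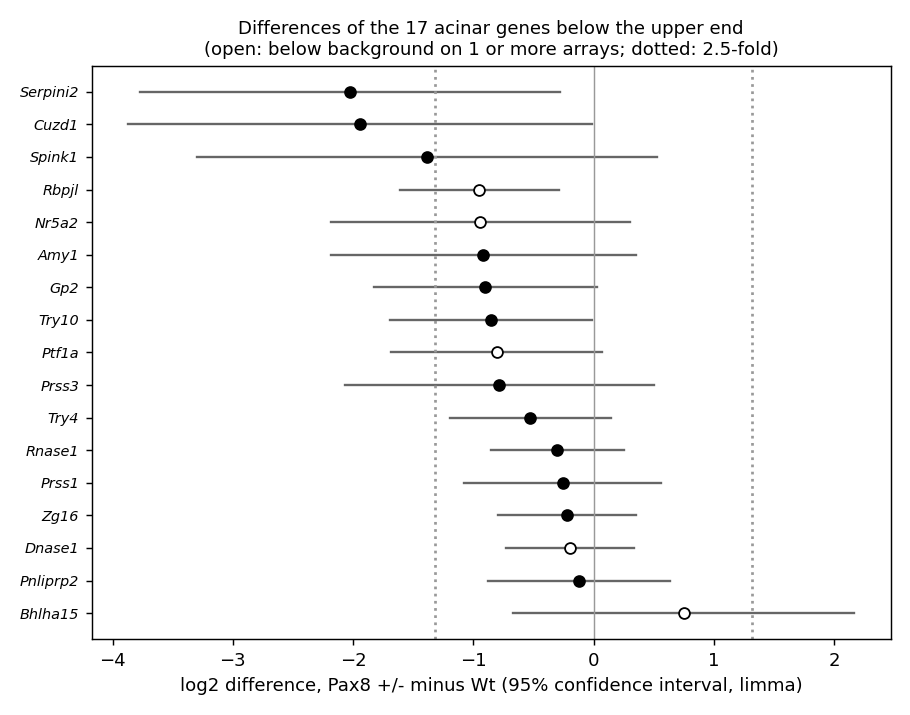
Log2 difference, Pax8 +/- minus Wt, with its 95% confidence interval from limma (horizontal axis) for the 17 acinar genes below the upper end (rows), open where a gene lay below background on 1 or more arrays and with dotted lines at 2.5-fold. All points but Bhlha15 lie left of 0, from -2.02 for Serpini2 to -0.12 for Pnliprp2, and most intervals reach past 0.

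Promoters of the acinar genes share short motifs that bear on PTF1. PTF1A binds an E-box, searched here as CACCTG or CAGCTG, and RBPJL a box searched as TGGGAA. The TATA box was searched as TATAAA. Each motif was looked for on both strands from 250 bases before to 50 after the start of the gene, in RefSeq sequences of the build GRCm38.p6. Of the 34 genes, 28 had such a sequence, and Clps, Ctrc, Spink1, Try10, Try5 and Zg16 had none. CACCTG was present in 17 of the 28 (60.7%), against 22.6% of 27025 genes in all. CAGCTG was present in 6 (21.4%, against 18.3% of all genes), TGGGAA in 16 (57.1%, against 28.3%) and an E-box together with TGGGAA in 9 (32.1%, against 9.9%). TATAAA was present in 13 (46.4%, against 15.7%), and on the gene's own strand with its first base 40 to 20 bases before the start in 7 (25%, against 2.4%). No 2 of these motifs overlapped in the promoters of the acinar genes. A match of letters is a description and does not show that a factor binds there.

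Shown here are 6 of them: Serpini2 and Cuzd1, which passed the thresholds of the study, Gp2 of the granule membrane, Cel and Prss2 at the upper end of the scale, and Rbpjl, whose groups did not overlap. Each is written 5′ to 3′ on the gene's strand, with the matches to the motifs above in capitals.
Serpini2, chr3:75270029-75270328, minus strand: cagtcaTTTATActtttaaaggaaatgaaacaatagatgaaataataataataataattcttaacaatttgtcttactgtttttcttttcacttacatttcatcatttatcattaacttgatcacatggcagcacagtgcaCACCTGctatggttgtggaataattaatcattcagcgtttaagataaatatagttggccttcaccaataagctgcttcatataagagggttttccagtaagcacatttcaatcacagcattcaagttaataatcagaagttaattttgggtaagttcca
Cuzd1, chr7:131322243-131322542, minus strand: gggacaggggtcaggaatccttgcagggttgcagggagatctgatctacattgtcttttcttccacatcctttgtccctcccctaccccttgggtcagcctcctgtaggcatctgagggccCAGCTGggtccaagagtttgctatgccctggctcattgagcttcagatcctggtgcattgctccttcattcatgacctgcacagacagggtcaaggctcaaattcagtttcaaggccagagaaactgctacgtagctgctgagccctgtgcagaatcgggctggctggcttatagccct
Gp2, chr7:119459223-119459522, minus strand: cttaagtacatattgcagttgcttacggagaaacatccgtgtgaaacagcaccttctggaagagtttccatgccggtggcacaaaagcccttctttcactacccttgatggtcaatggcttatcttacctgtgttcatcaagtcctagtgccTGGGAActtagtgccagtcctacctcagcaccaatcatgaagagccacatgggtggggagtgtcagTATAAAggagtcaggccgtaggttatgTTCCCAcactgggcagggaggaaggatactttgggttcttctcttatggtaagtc
Cel, chr2:28563354-28563653, minus strand: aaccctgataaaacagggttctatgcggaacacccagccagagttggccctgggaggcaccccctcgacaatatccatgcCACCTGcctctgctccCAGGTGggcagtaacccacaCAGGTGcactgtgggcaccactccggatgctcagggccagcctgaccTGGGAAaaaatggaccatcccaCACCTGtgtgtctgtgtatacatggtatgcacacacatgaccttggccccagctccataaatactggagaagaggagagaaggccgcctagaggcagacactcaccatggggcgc
Prss2, chr6:41521526-41521825, plus strand: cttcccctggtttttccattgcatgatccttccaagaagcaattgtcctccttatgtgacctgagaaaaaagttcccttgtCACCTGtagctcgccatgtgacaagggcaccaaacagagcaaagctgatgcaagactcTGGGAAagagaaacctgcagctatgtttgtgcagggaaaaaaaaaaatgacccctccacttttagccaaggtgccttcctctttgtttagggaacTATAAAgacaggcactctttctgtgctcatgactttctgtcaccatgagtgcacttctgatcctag
Rbpjl, chr2:164402944-164403243, plus strand: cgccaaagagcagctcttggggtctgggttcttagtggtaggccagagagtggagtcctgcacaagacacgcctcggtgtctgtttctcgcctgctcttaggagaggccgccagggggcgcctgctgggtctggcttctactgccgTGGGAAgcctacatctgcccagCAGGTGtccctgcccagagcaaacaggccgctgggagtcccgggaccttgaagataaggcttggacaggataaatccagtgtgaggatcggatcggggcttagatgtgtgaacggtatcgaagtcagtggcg

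In these sequences Cel held 4 matches to CACCTG and 1 to TGGGAA, while Serpini2 held 1 match to CACCTG and none to TGGGAA, and Cuzd1 1 match to CAGCTG and none to TGGGAA. Prss2 held 1 match to CACCTG and 1 to TGGGAA. Rbpjl, itself part of the PTF1 complex, held 1 match to each as well. Gp2 held 2 matches to TGGGAA and a TATAAA that began 32 bases before the start, with no E-box of either form in this window. Genes with and without the paired motifs were found both at the upper end (Cel and Prss2 with them, Cpb1 without) and below it.

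Among the 17 genes below the upper end, the 3 with the most negative differences, Serpini2, Cuzd1 and Spink1, belong to the granule proteins and inhibitors. No difference could be read for the 7 protease zymogen genes, all at the upper end on some or all arrays. Serpini2 encodes a serpin, a member of the serine protease inhibitor family, made in the pancreas. It was at 11.37, 9.37 and 9.64 on the Pax8 +/- arrays, against 12.72, 13.23 and 10.50 on the Wt arrays. Pax8 +/- replicate 1 lay within the Wt range, above Wt replicate 3. The log2 difference was -2.02 (standard error 0.76, 95% confidence interval -3.77 to -0.28), a fold change of 0.246, with unadjusted p = 0.028 and adjusted p = 0.745 from limma. When each group was summarised by its Tukey biweight, which gives less weight to a distant array, the log2 difference was -3.39. With so few arrays, Pax8 +/- replicate 1 got no weight and Wt replicate 3 little, the arrays by which the groups overlapped. No standard error goes with this value. Serpini2 was singled out by the study on these same arrays, so that its direction is not independent evidence.

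Cuzd1 encodes a membrane protein of the zymogen granule. Its levels were 16.63, 14.16 and 13.17 on the Pax8 +/- arrays, against 16.47, 17.62 and 15.69 on the Wt arrays. Again Pax8 +/- replicate 1 stood among the Wt arrays, and the other Pax8 +/- arrays below all of them. The log2 difference was -1.94 (standard error 0.84, 95% confidence interval -3.87 to -0.01), with unadjusted p = 0.049 and adjusted p = 0.745 from limma. Both calls, of Serpini2 and of Cuzd1, were lost without Pax8 +/- replicate 2, Pax8 +/- replicate 3, Wt replicate 1 or Wt replicate 2. Over the 6 fits that each left out 1 array, the log2 difference ran from -2.85 to -1.48 for Serpini2 and from -2.93 to -1.20 for Cuzd1.

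Spink1, which encodes the trypsin inhibitor stored beside trypsinogen, was at 18.21, 15.36 and 14.98 on the Pax8 +/- arrays, against 17.12, 18.67 and 16.92 on the Wt arrays. Its log2 difference of -1.39 (standard error 0.84) did not pass (adjusted p = 0.752 from limma). With array weights it passed the thresholds of the study at -1.68, in a fit that called 1.38% of all probe sets lower. Gp2, the main glycoprotein of the zymogen granule membrane, was at 19.10, 17.74 and 17.83 on the Pax8 +/- arrays, against 19.21, 19.43 and 18.73 on the Wt arrays. For Gp2 the log2 difference was -0.90 (standard error 0.41, adjusted p = 0.745 from limma), and it did not pass either. Zg16, a zymogen granule protein gene, was at 19.61, 19.12 and 19.56 on the Pax8 +/- arrays, against 19.71, 19.69 and 19.56 on the Wt arrays. Its log2 difference was -0.22 (95% confidence interval -0.79 to 0.35), and the groups overlapped.

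Trypsinogens are activated in the gut and then activate the other zymogens. Their genes are close copies of each other, and probes can bind the RNA of more than 1 copy, so that the values below may not be those of single genes. Try10 was at 17.97, 16.99 and 16.83 on the Pax8 +/- arrays, against 18.10, 18.50 and 17.73 on the Wt arrays. Its log2 difference was -0.85 (standard error 0.37, unadjusted p = 0.047, adjusted p = 0.745 from limma), under the fold change of the study. Pax8 +/- replicate 1 stood among the Wt arrays, as it did for the granule proteins. Try4 was at 19.18, 18.53 and 18.52 on the Pax8 +/- arrays, against 19.31, 19.52 and 18.98 on the Wt arrays, a log2 difference of -0.53 (standard error 0.29).

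Prss1 and Prss3 showed another order of arrays. Prss1 was at 15.27, 15.23 and 14.75 on the Pax8 +/- arrays, against 15.33, 15.98 and 14.71 on the Wt arrays, a log2 difference of -0.26 (95% confidence interval -1.08 to 0.56). Prss3 was at 11.23, 11.06 and 11.52 on the Pax8 +/- arrays, against 11.50, 13.50 and 11.17 on the Wt arrays, a log2 difference of -0.78 (95% confidence interval -2.07 to 0.50). For Prss3 a single array, Wt replicate 2, stood apart, and without it the log2 difference was -0.060. For Prss1 the direction turned without Wt replicate 2, at 0.062.

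Of the genes for starch, fat and nucleic acid digestion, 4 stayed below the upper end. Amy1, the amylase gene of salivary gland and liver, was at 13.60, 11.88 and 12.26 on the Pax8 +/- arrays, against 13.23, 14.48 and 12.79 on the Wt arrays, a log2 difference of -0.92 (standard error 0.55). Amylase genes are close copies, so that RNA of the pancreatic amylases, which lay at or near the upper end, may add to this value. Pnliprp2, a lipase-related gene, was at 19.26, 18.43 and 18.29 on the Pax8 +/- arrays, against 19.05, 18.85 and 18.44 on the Wt arrays, and its highest value was on Pax8 +/- replicate 1. Its log2 difference was -0.12 (95% confidence interval -0.88 to 0.64) and turned to 0.067 without Pax8 +/- replicate 3 and to 0.015 without Wt replicate 1. Rnase1, the pancreatic ribonuclease gene, was at 19.32, 19.26 and 19.20 on the Pax8 +/- arrays, against 19.76, 19.58 and 19.34 on the Wt arrays. It was lower on every Pax8 +/- array, by a log2 difference of -0.30 (standard error 0.24, adjusted p = 0.800 from limma) just under the upper end. Dnase1, a deoxyribonuclease gene, lay far below background on all 6 arrays, at 2.45 to 2.71 on the Pax8 +/- arrays and 2.70 to 2.91 on the Wt arrays.

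The transcription factors lay near or below background. Ptf1a was at 5.84, 5.53 and 5.01 on the Pax8 +/- arrays, against 6.88, 6.33 and 5.59 on the Wt arrays. Rbpjl was at 5.27, 5.01 and 5.26 on the Pax8 +/- arrays, against 6.22, 6.50 and 5.67 on the Wt arrays, and the groups did not overlap. Both genes were below background on all 6 arrays, so that no fold change is given. Nr5a2 was at 8.28, 6.67 and 6.30 on the Pax8 +/- arrays, against 8.45, 8.32 and 7.30 on the Wt arrays, above background on 3 of 6 arrays. Its log2 difference of -0.94 (standard error 0.54) is therefore not exact in size. Bhlha15 was the only 1 of the 17 genes with a higher mean in Pax8 +/- islets. It was at 7.56, 9.78 and 8.08 on the Pax8 +/- arrays, against 7.85, 6.82 and 8.51 on the Wt arrays, a log2 difference of 0.75 (95% confidence interval -0.67 to 2.17). Its highest value was on Pax8 +/- replicate 2 and its lowest on Wt replicate 2, and it was above background on 3 of 6 arrays. The log2 difference was 0.096 without Pax8 +/- replicate 2 and 0.30 without Wt replicate 2.

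The arrays of a group differed among themselves in the acinar genes, and most of the genes shared an order of arrays. Pax8 +/- replicates 2 and 3 both lay below every Wt array for 12 of the 17 genes, where 16.1% of all probe sets did so. Among genes above background on all 6 arrays it was 9 of 12, where 24.4% of 4761 such probe sets below the upper end did so. Pax8 +/- replicate 1 was the highest Pax8 +/- array for 14 of the 17 (35% of all probe sets) and lay within the Wt range for 13 (55.8% of all). Wt replicate 2 was the highest of the 6 arrays for 11 of the 17 (20.3% of all), and Wt replicate 3 the lowest Wt array for 15 (35.8% of all). Relative to each gene's own mean over 6 arrays, the median over the 17 genes was 0.18, -0.61 and -0.49 on Pax8 +/- replicates 1, 2 and 3, against 0.33, 0.77 and -0.03 on Wt replicates 1, 2 and 3. These orders were noticed in the data and are given as a description. Genes of 1 preparation share its RNA and are not independent of each other.

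**Figure D3:**
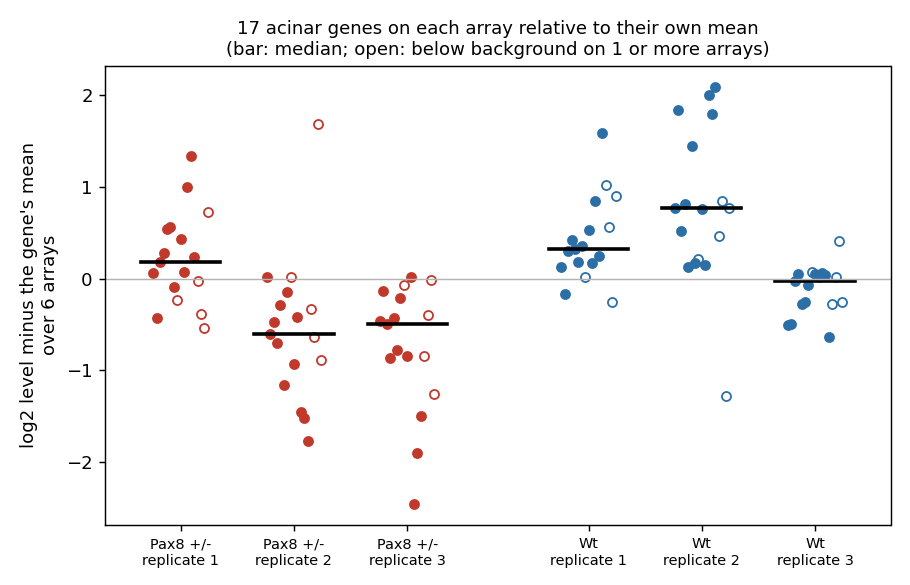
Log2 level of the 17 acinar genes below the upper end minus each gene's mean over 6 arrays (vertical axis) on each Pax8 +/- array (red) and Wt array (blue), with a bar at the median and open points for genes below background on 1 or more arrays. The medians are 0.18, -0.61 and -0.49 on the Pax8 +/- arrays and 0.33, 0.77 and -0.03 on the Wt arrays.

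The number of called genes depended on single arrays. Without Pax8 +/- replicate 1, 6 of the 17 genes were lower at the thresholds of the study, Serpini2, Cuzd1, Spink1, Gp2, Amy1 and Nr5a2, and the median log2 difference of the 17 was -0.99. In that fit 2.69% of all probe sets were called lower, against 0.351% with all arrays, so that calls were more frequent over the whole array too. The log2 differences were then -2.40 for Spink1, -1.34 for Gp2 and -1.43 for Amy1. Nr5a2 lay below background on both remaining Pax8 +/- arrays, so that its difference is not given. Over all 6 fits with 1 array left out, the difference reached -0.78 for Spink1 (without Pax8 +/- replicate 3), -0.66 for Gp2 (without Pax8 +/- replicate 2) and -0.42 for Amy1 (without Wt replicate 2) at the other end. Without Wt replicate 3, 2 genes were called, as with all arrays, and 1% of all probe sets. Without any other single array, whether Pax8 +/- replicate 2, Pax8 +/- replicate 3, Wt replicate 1 or Wt replicate 2, 0 genes were called. The shares of all probe sets called lower in these fits were 0.0766% without Pax8 +/- replicate 2, 0.135% without Pax8 +/- replicate 3, 0.198% without Wt replicate 1 and 0.0856% without Wt replicate 2.

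**Figure D4:**
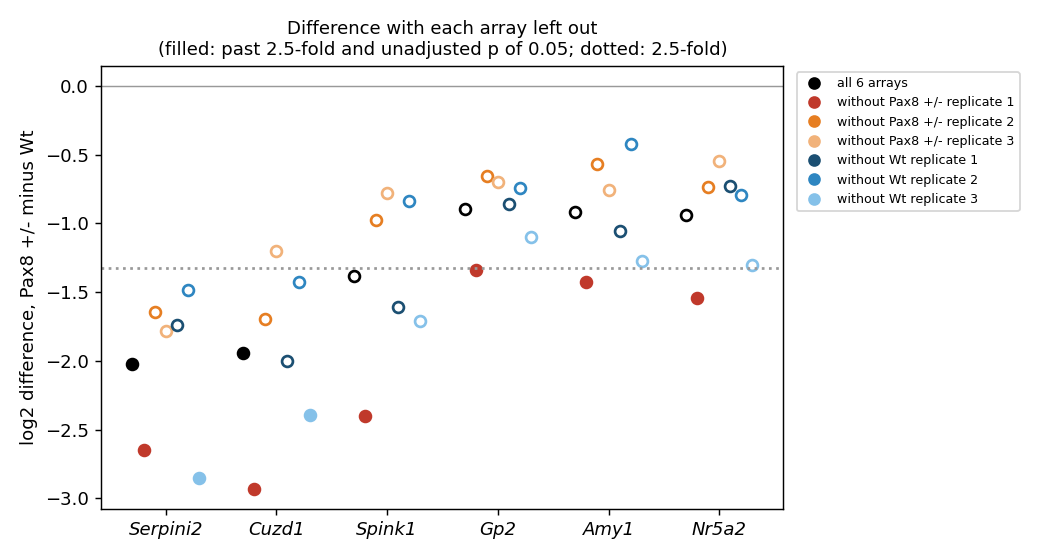
Log2 difference, Pax8 +/- minus Wt (vertical axis), of 6 acinar genes with all 6 arrays (black) and with each array left out in turn (colours), filled where past a 2.5-fold change and an unadjusted p of 0.05. All values lie below 0, all 6 genes are filled without Pax8 +/- replicate 1, Serpini2 and Cuzd1 are also filled without Wt replicate 3, and none is filled without any other single array.

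Other cell type markers moved over the same arrays. The mean log2 level of the 17 acinar genes was 13.54, 12.76 and 12.58 on the Pax8 +/- arrays, against 13.74, 14.11 and 13.20 on the Wt arrays. That of 15 beta-cell markers below the upper end was 11.26, 13.82 and 13.78 on the Pax8 +/- arrays, against 11.43, 9.97 and 12.79 on the Wt arrays. The array with the most acinar signal, Wt replicate 2, had the least beta-cell signal, and the 2 arrays with the least acinar signal, Pax8 +/- replicates 2 and 3, had the most. All 15 had a higher mean in Pax8 +/- islets and 1 was called higher (0.648% of all probe sets), with a median log2 difference of 1.27. The called gene was Nkx2-2, a transcription factor of beta cells, named here after its values were seen. Mafa was below background on all arrays. Of 7 alpha- and delta-cell markers, 5 stayed below the upper end and 4 of these had a higher mean. Of the 5, 3 (Irx2, Hhex and Ghsr) were below background on all arrays. The part of the islet cell types in the acinar differences was not tested.

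Duct markers also had mostly lower means. Of 10 measured of 12 listed, 8 had a lower mean in Pax8 +/- islets. By limma 0 were called, where 0.351% of all probe sets were called lower and 0.648% higher. An unadjusted p under 0.05 from limma was reached by 1, Cftr, where 5.91% of all probe sets reached it. Cftr, Onecut1 and Car2 lay below background on all arrays. The most negative log2 differences were those of Krt18 (-1.41) and Krt8 (-1.33), while that of Krt19 was -0.35. Krt7, above background on all arrays, went the other way by 0.93, as 1 of 2 duct markers with a higher mean. These keratin genes were named after their values were seen. The mean level of the duct markers was 11.27, 10.06 and 9.90 on the Pax8 +/- arrays, against 10.70, 11.33 and 10.63 on the Wt arrays. Of 8 endothelial markers, 7 had a lower mean, and 3 (Tek, Esam and Vwf) were below background on all arrays. Plvap, named after its values were seen, had a higher mean, by a log2 difference of 0.59. The mean level of the 8 was 8.57, 7.66 and 7.74 on the Pax8 +/- arrays, against 8.63, 8.85 and 8.09 on the Wt arrays. Mesenchymal and stellate markers lay near background, with 7 of 9, Col1a1, Col1a2 and Col3a1 among them, below it on all arrays, and had a mean level of 4.37 to 5.29 on the Pax8 +/- arrays and 4.75 to 5.28 on the Wt arrays. Of 7 macrophage markers, 5 (Adgre1, Csf1r, Lyz2, Itgam and C1qb) were below background on all arrays, and the mean level was 5.18 to 5.55 on the Pax8 +/- arrays and 5.20 to 5.61 on the Wt arrays. Of the 7, 4 had a lower and 3 a higher mean, with a median log2 difference of -0.09. Higher at the thresholds of the study was 1 of the 7, C1qa, where 0.648% of all probe sets were called higher. C1qa was at 7.22, 9.33 and 8.76 on the Pax8 +/- arrays, against 7.21, 5.83 and 6.998 on the Wt arrays, above background on 2 arrays. The groups did not overlap for 2 of the 7, C1qa and C1qb, both higher, where 4.52% of all probe sets were separate in that direction. Cd14, another of the 7, had a lower mean, at 9.15, 6.03 and 5.76 on the Pax8 +/- arrays, against 8.82, 8.43 and 7.26 on the Wt arrays, above background on 3 arrays, and did not pass. C1qa and Cd14 were named after their values were seen. The part of these cell types in the acinar differences was not tested either.

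**Figure D5:**
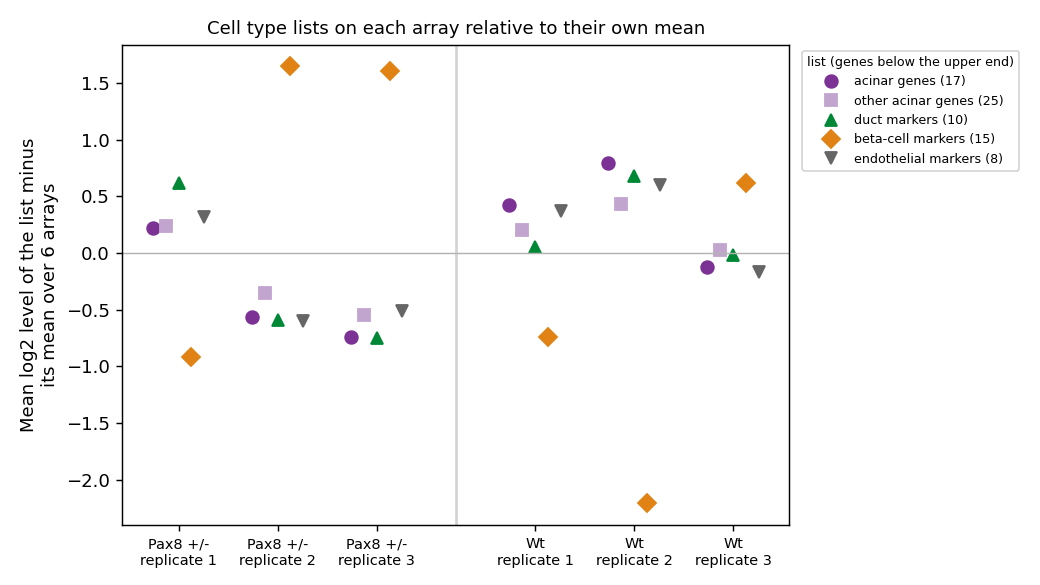
Mean log2 level of 5 gene lists minus the list's mean over 6 arrays (vertical axis) on each Pax8 +/- array and each Wt array, over the genes of a list below the upper end. The 17 acinar genes and the 10 duct markers lie below 0 on Pax8 +/- replicates 2 and 3, where the 15 beta-cell markers lie above it, and the order is turned round on Wt replicate 2.

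Further acinar genes were taken from a list of 30, of which 27 were measured, with 2 (Amy2a5, a pancreatic amylase gene, and Nupr1, a stress protein gene) at the upper end on all arrays. Of the other 25, 11 lay below background on all arrays, 18 had a lower mean in Pax8 +/- islets and 7 a higher one, with a median log2 difference of -0.22. Lower at the thresholds of the study was 1, Pdia2, a protein disulfide isomerase gene of the acinar endoplasmic reticulum, and 0 were higher (0.351% and 0.648% of all probe sets). The groups did not overlap for 4, all lower (5.14% of all probe sets). They were Aqp12, Slc39a5 and, named after their values were seen, Slc4a4, a bicarbonate transporter gene, and Cldn10, a tight junction gene. Slc4a4 and Cldn10 were below background on all arrays. The mean level of the 25 was 7.75 to 8.54 on the Pax8 +/- arrays and 8.32 to 8.73 on the Wt arrays.

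Pdia2 was at 13.73, 11.98 and 11.89 on the Pax8 +/- arrays, against 14.21, 14.48 and 13.31 on the Wt arrays, a log2 difference of -1.47 (standard error 0.53, adjusted p = 0.745 from limma). Aqp12, a water channel gene of acinar cells, was at 12.15, 11.21 and 10.47 on the Pax8 +/- arrays, against 12.20, 13.01 and 12.17 on the Wt arrays. It was lower on every Pax8 +/- array, by a log2 difference of -1.18 (standard error 0.45), short of 2.5-fold. The other 4 with the smallest p, none of which passed the thresholds, were Tff2, a secreted trefoil peptide gene (-1.30), Erp27, an endoplasmic reticulum protein gene (-1.49), Xbp1, a transcription factor of secretory cells (-1.07), and Slc39a5, a zinc transporter gene (-0.86). Xbp1 is also expressed in beta cells.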

How the data were processed

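Islet RNA of 3 Pax8 +/- and 3 Wt samples was hybridized to Clariom S arrays. The authors deposited log2 values, made with RMA and the Transcriptome Analysis Console per the submitters' processing notes. No version, annotation or build of these steps was found in the sources used here. Of 28846 rows, 5222 negative and 1418 other controls were left out and 22206 gene probe sets kept, with no filter on level; 19572 had 1 gene symbol in the platform annotation and 2634 are unnamed here. Symbols were updated to RefSeq through the gene identifiers of the annotation where these matched. Groups were taken from the sample labels and compared with limma 3.58.1 (R 4.3.3), as a 2-sided moderated test over 6 arrays with no covariate, with Benjamini-Hochberg adjustment over all probe sets; 4.32 prior degrees of freedom moderate the spread. The code was tested on simulated data with 200 changed probe sets. With 3 arrays against 3, an exact permutation test cannot go below p = 0.1, so none was run. The number of arrays limits the precision.

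The genes and lists were chosen with earlier results of these data known. Every acinar gene is accounted for, with the value on every array where it lay below the upper end and above background on at least 1 array. Ptf1a and Rbpjl, outside that rule, are given in full and were chosen after their values were seen. Of the other acinar genes, the 6 with the smallest p among those above background on 3 or more arrays are named. Amy2a5 and Nupr1 are named as at the upper end. Alternatives were quantile normalization or 1 common median for the arrays; a filter that drops the dimmest 33.3% of probe sets; array weights, an unmoderated fit, a robust fit with a trend on intensity and Tukey biweight means; the replicate block; a 2-fold limit; an upper-end margin of 0.5; every probe set of a gene; and each array left out in turn. Keeping only genes above background on all arrays was added after seeing the data.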

Additional observations from a re-analysis of the deposited data

How the results depend on the processing

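Of the 17 acinar genes below the upper end, 2 passed as lower when all 6 arrays were used. The count was 0 without moderation, 1 under quantile normalization and 1 when the dimmest 33.3% of probe sets were dropped. The gene lost in the last 2 settings was Cuzd1, and the cause was not tested. The count was 3 with array weights, and 2 in the blocked fit, in the robust fit and with 1 common median. It was also 2 with the 2-fold limit, Tukey biweight means, the wider upper-end margin, every probe set or only genes above background. These last settings reused the unadjusted limma p of the unaltered fit, so that their counts are not separate tests. With Tukey biweight means Spink1 (-1.85), Nr5a2 (-1.84) and Gp2 (-1.37) passed the fold limit. They could not be called, as that p was above 0.05. Leaving out 1 array gave 0 to 6 genes, the 6 without Pax8 +/- replicate 1, where 2.69% of all probe sets were called lower, against 0.0766% to 1% without any other array and 0.351% with all arrays. With array weights 1.38% were called lower, in the blocked fit 0.653%, in the robust fit 0.405% and with 1 common median 0.315%. The share was 0.338% under quantile normalization, 0.0721% without moderation and 0.432% of the probe sets kept when the dimmest were dropped. The count of higher genes was 0 in all settings. Over the settings with a fit of their own, 0.0856% (without moderation) to 3.33% (without Pax8 +/- replicate 1) of probe sets were called higher. At such shares, 0 of 17 genes says little. The median log2 difference of -0.81 ran from -1.10 to -0.42 over the arrays left out, the last without Wt replicate 2, and was -0.99 with array weights and -0.82 over the 12 genes above background on all arrays. For single genes, the direction turned for Pnliprp2 (-0.42 to 0.067 over the arrays left out, 0.015 without Wt replicate 1) and Prss1 (-0.57 to 0.062). All 32 genes had 1 probe set, so that taking all probe sets of a gene changed nothing.

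Whether the replicate number pairs the samples is not in the labels. Deviations from the group means correlated at 0.00, -0.42 and 0.14 for the numbers 1, 2 and 3. The highest values were 0.47, for Pax8 +/- replicate 2 with Wt replicate 3, and 0.45, for Pax8 +/- replicate 1 with Wt replicate 2. Not every array correlated best with its own number. The correlations are across probe sets, which are not independent, and cannot settle whether samples were paired. With the replicate block the count stayed at 2 lower genes. No difference can be read at the upper end, and values of genes below background are not exact in size.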
